A study of Mus musculus with 16 samples.

Results

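The hippocampus of mice carrying mutant Twinkle was compared with that of wild-type mice on 8 of the 16 arrays of the series, 4 for each genotype, picked by the region named in the sample titles. The other 8 arrays hold cerebellum of the same genotypes. For the hippocampus samples the free-text description names cerebellum, whereas their other 3 label entries (title, source, tissue) name the hippocampus and were used. The mutants, in order of replicate number, were 24, 24, 21 and 21 months old, and the wild types 26, 24, 21 and 23 months, so the genotypes were not matched for age. The mutant samples are labelled as overexpressors of mutant Twinkle. Neither the promoter that drives the transgene nor the mutation is named in the labels, and no other allele or agent is given for either group. Replicates are called biological, without saying whether the hippocampus and cerebellum of one number came from one animal. Arrays of one genotype and number have the same age in both regions, so they may share an animal. The main fit takes all 16 arrays as independent, so its p-values speak only for the spread among these samples.

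The Twnk gene encodes Twinkle, a helicase that opens mitochondrial DNA ahead of the mitochondrial polymerase. Dominant mutations of it cause progressive external ophthalmoplegia, with deletions of mitochondrial DNA that build up in muscle and brain over adult life, and mice that carry such a mutation are known as deletor mice. The hippocampus holds the dentate gyrus and the CA fields, whose excitatory neurons pass signals along a one-way circuit under the control of inhibitory interneurons. Along its long axis, the dorsal end is best known for spatial memory and the ventral end for stress and emotion, and the pyramidal neurons of the poles express partly different genes. The tissue lies against a ventricle lined by ciliated ependyma and holding choroid plexus, and against the meninges, so a dissected block can bring these along. It is bulk tissue, in which fewer cells of a type and less RNA per cell cannot be told apart.

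Each deposited value is a difference from the median hippocampus array, on a logarithmic scale whose base is not stated and was assumed to be 2. No expression level is left, so genes are compared between arrays and never with each other. With 8 arrays, the 2 in the middle of a probe set lie equally far on either side of 0. Differences below are mutant minus wild type, with its standard error (SE) from limma, fitted to all 16 arrays and adjusted by Benjamini and Hochberg's method over 18168 genes. Two-sided tests with a threshold of 0.05 were used, and the number of arrays limits the precision (median SE 0.0741).

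At that threshold limma called 0 of 18168 genes (0%), and the smallest adjusted p was 0.0571. At an adjusted p under 0.1 there were 7 (0.0385%), namely Arsj, Cpne9, Cpne7, Cpne2, Sgk1, Dcn and Gtsf1. These 7 depend on having the cerebellum arrays in the fit. With the 8 hippocampus arrays alone the smallest adjusted p was 0.644, so no gene was under 0.1. At an unadjusted p under 0.05 the fit to both regions gave 1459 genes (8.03%). Of these, 959 lay higher in mutants (5.28% of all genes) and 500 lower (2.75%). Those 2 percentages are the background against which the lists below are read. The 65.7% share of higher genes among the 1459 was 53.7% when each array's own median was subtracted first. The median difference over all genes was 0.02. The genotypes did not overlap, that is, every mutant array lay on one side of every wild-type array, for 864 genes (4.76%), 588 higher (3.24%) and 276 lower (1.52%). Since no gene passed the test, genes below are said to lie higher or lower, with the size of the difference.

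Several arrays carried markers of neighbouring tissue. Markers of cerebellar granule neurons, 12 measured, had a mean of 1.96 on wild-type replicate 1 and 0.66 on mutant replicate 1, against -0.19 to 0.18 on the other 6 arrays. Gabra6, the GABA receptor subunit that marks these neurons, lay 6.28 above the median array on wild type 1, 3.28 above on mutant 1 and 1.38 above on mutant 3. Purkinje cell markers, 10 measured, had a mean of 1.28 on wild type 1, and CA1 pyramidal markers, 9 measured, one of -0.88 there. Meningeal markers, 19 measured, averaged 1.11 on mutant 1, and choroid plexus markers, also 19, averaged 1.61 on mutant 4 and 0.60 on wild type 1. Wild type 3 stood apart in markers of the poles, as described below. None of these lists can be called absent from an array, because no level is left, and their part in the genotype differences was not tested beyond leaving arrays out.

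**Figure D1:**
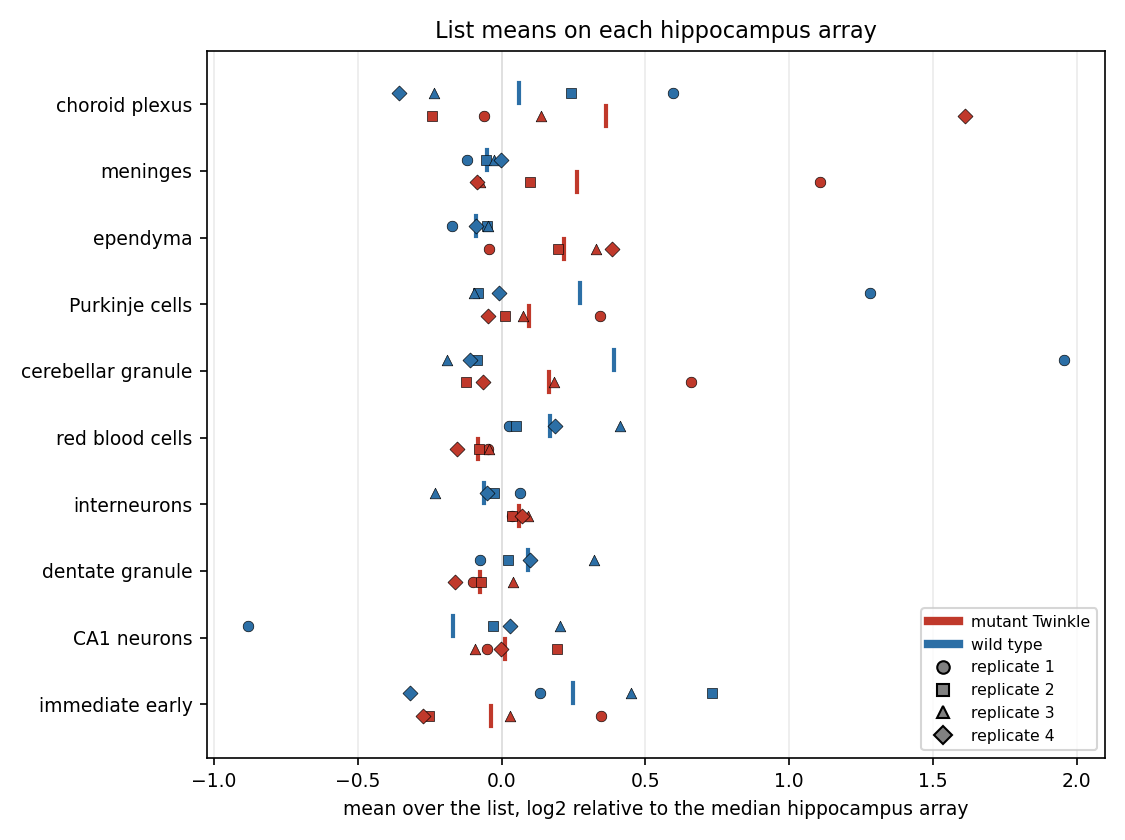
Mean over the genes of 10 lists on each of the 8 hippocampus arrays (x axis, log2 relative to the median hippocampus array). Symbols give the replicate, colours the genotype and vertical bars the group mean. Single arrays set the cerebellar granule, Purkinje, meninges and choroid plexus rows, while the immediate early genes spread widely within both genotypes.

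The targeted gene was examined first. Twnk was measured by 1 probe set. The mutants were at 0.03, -0.01, 0.01 and 0.02 and the wild types at -0.09, -0.11, -0.06 and 0.05, so wild type 4 lay above every mutant and the groups overlapped. The difference was 0.06 (SE 0.05, limma adjusted p = 0.77), or 0.10 without wild type 4. Where the probes lie relative to the transgene is not given in the sources used here, so this value does not check the labels.

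Arsj, which encodes a sulfatase of the arylsulfatase family, had the smallest p. Mutants 1 to 4 were at -0.50, -0.22, -0.20 and -0.18 and wild types 1 to 4 at 0.87, 0.34, 0.58 and 0.18. All mutants lay below all wild types, and wild types 1 and 3 were the highest. The difference was -0.77 (SE 0.11, limma adjusted p = 0.0571), -0.58 without the 3 arrays carrying neighbouring-tissue markers (mutants 1 and 4 and wild type 1), and -0.54 without wild types 1 and 3. Of 13 measured sulfatase genes, 1 other was at an unadjusted p under 0.05, the lysosomal heparan sulfatase Sgsh, at 0.16 (SE 0.07, limma adjusted p = 0.59).

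Copines are calcium-dependent membrane-binding proteins, and 3 of the 7 leading genes belong to this family. Cpne9 was at -0.25, -0.09, -0.19 and -0.27 in mutants and 0.61, 0.09, 0.53 and 0.43 in wild types, a difference of -0.62 (SE 0.09, limma adjusted p = 0.0571). Cpne7 was at 0.16, 0.26, 0.42 and 0.10 in mutants and -0.46, -0.14, -0.58 and -0.13 in wild types, a difference of 0.56 (SE 0.09, adjusted p = 0.0826). Cpne2 was at 0.29, 0.22, 0.55 and 0.17 in mutants and -0.34, -0.17, -0.89 and -0.24 in wild types, a difference of 0.71 (SE 0.13, adjusted p = 0.0826). None of the 3 overlapped between genotypes, and they lay in opposite directions, Cpne9 lower and the other 2 higher in mutants. Wild types 1 and 3 were farthest from the mutants for all 3. Of the other 6 family members, Cpne1, Cpne3, Cpne4, Cpne5, Cpne6 and Cpne8, none had an unadjusted p under 0.05, and their differences ranged from -0.12 (Cpne1) to 0.23 (Cpne6). Cpne6 was 0.04 without wild type 1, and Cpne4, Cpne5 and Cpne8 changed sign when single arrays were left out.

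The rest of the 7 were Sgk1, Dcn and Gtsf1, each at an adjusted p of 0.0826 in limma. Sgk1, a kinase induced by glucocorticoids, was at -0.21, -0.28, -0.13 and -0.07 in mutants and 0.20, 0.12, 0.17 and 0.07 in wild types (difference -0.31, SE 0.05). Dcn, which encodes the collagen-binding proteoglycan decorin, was at 0.44, 0.24, 0.52 and 0.01 in mutants and -0.43, -0.09, -0.58 and -0.21 in wild types (difference 0.63, SE 0.11). Gtsf1, known for its role in the piRNA pathway of germ cells, was at 0.27, 0.27, 0.07 and 0.19 in mutants and -0.16, -0.10, -0.11 and -0.08 in wild types (difference 0.31, SE 0.06). The genotypes did not overlap for any of them. The probe sets of a gene differed in size. One of Dcn showed 1.11 and the other 0.15, and those of Gtsf1 showed 0.46 and 0.17. Those of Cpne7 were at 0.78 and 0.34, while Sgk1 and Cpne2 each had 1 probe set.

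**Figure D2:**
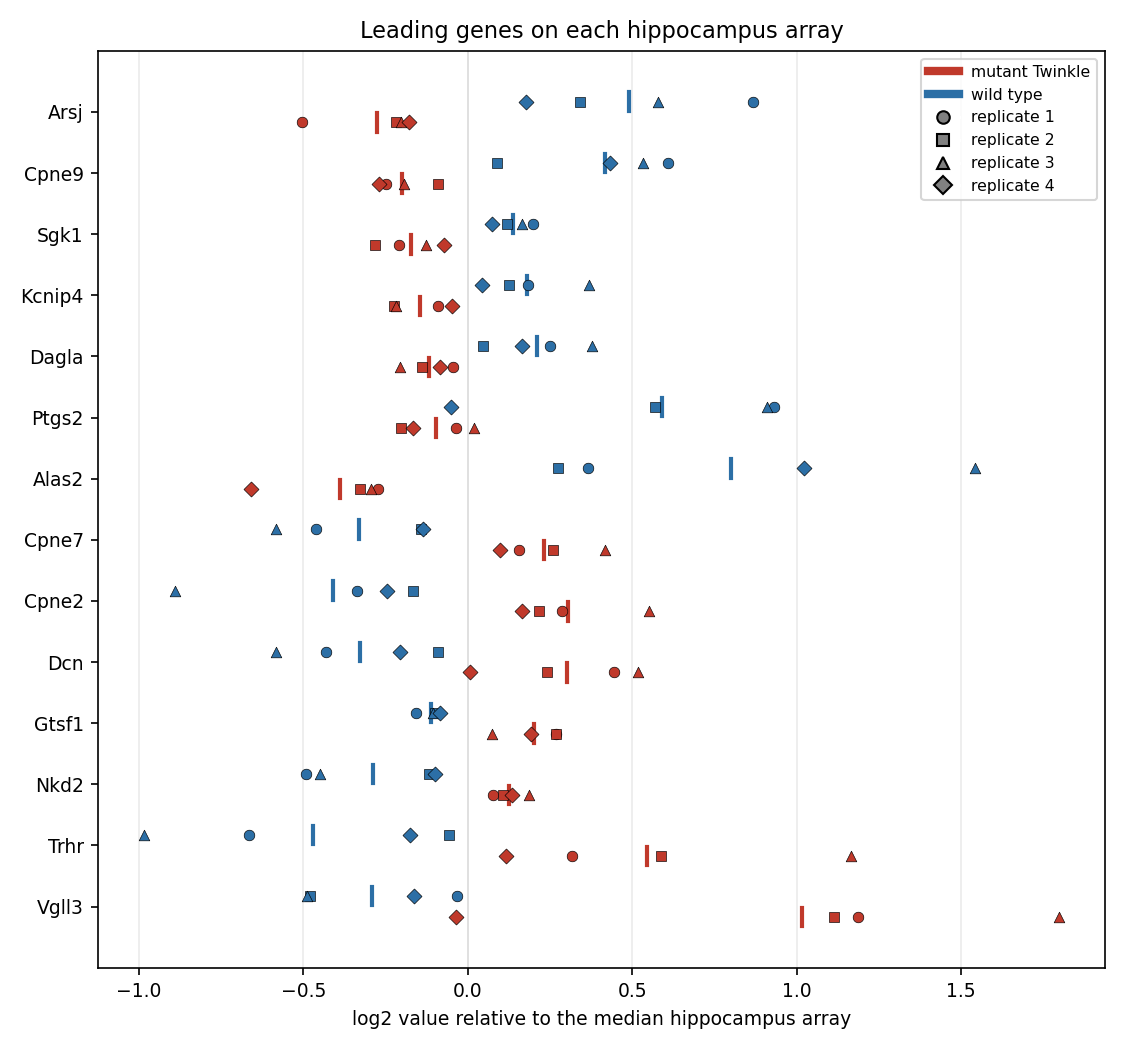
Values of 14 leading genes on each of the 8 hippocampus arrays (x axis, log2 relative to the median hippocampus array), with the replicate as symbol, the genotype as colour and the group mean as a bar. The genotypes separate for 12 of the 14. Vgll3 and Ptgs2 overlap, through mutant 4 and wild type 4 respectively.

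Taking the 15 lowest p-values on the higher and on the lower side, the rule for naming genes, added 23 to these 7. Among all 30, the genotypes did not overlap for 28, and in 24 wild type 1 or 3 was the wild-type array farthest from the mutants. These genes were picked on the same differences, so the 28 is a description and is not to be read against the 4.76% of all genes.

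Vgll3, a cofactor of the TEAD transcription factors, had the largest difference of the 30 and overlapped between genotypes. It was at 1.19, 1.11, 1.80 and -0.03 in mutants and -0.03, -0.48, -0.49 and -0.16 in wild types. Mutants 1 to 3 lay above all wild types, and mutant 4 was level with wild type 1. The difference was 1.31 (SE 0.24, limma adjusted p = 0.12) and its 3 probe sets were at 0.78, 1.30 and 1.85. Without mutant 4 it was 1.66 (adjusted p = 5.42e-05), but this leaves out the array that overlapped, which favours a small p. Over all settings run, the limma adjusted p of Vgll3 reached 0.86. Of 15 measured genes of the TEAD and YAP factors and their targets, 2 lay higher at an unadjusted p under 0.05 (13.3%, against 5.28% of all genes). They were Vgll3 and the angiomotin family member Amotl2 (0.26, SE 0.08, limma adjusted p = 0.49). Amotl2 was 0.17 without mutant 1, and the median of the 15 was -0.02.

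Trhr, the receptor for thyrotropin-releasing hormone, was at 0.32, 0.59, 1.17 and 0.12 in mutants and -0.66, -0.06, -0.98 and -0.18 in wild types. No wild type reached a mutant, and the spread within each genotype was wide. The difference was 1.02 (SE 0.21, limma adjusted p = 0.16). Nkd2, an inhibitor of Wnt signalling, was at 0.08, 0.11, 0.19 and 0.13 in mutants and -0.49, -0.12, -0.45 and -0.10 in wild types (0.42, SE 0.08, adjusted p = 0.16). Here the mutants were close together and the wild types fell into a low pair, 1 and 3, and a pair nearer 0. Without that low pair the difference was 0.23. The 36 measured genes of the Wnt list held 6 at an unadjusted p under 0.05, all higher in mutants (16.7%, against 5.28% of all genes). The list median was 0.03. Wnt7a was at 0.15 (SE 0.06) and Wnt4 at 0.39 (SE 0.15), the latter 0.20 without wild type 3.

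Further genes higher in mutants were Nkx2-2, a transcription factor of the oligodendrocyte lineage (0.52, SE 0.11), Arhgap6 (0.55, SE 0.12), and Hsd17b14, a hydroxysteroid dehydrogenase (0.26, SE 0.06), each at a limma adjusted p of 0.225. Arhgap6 was 0.40 without wild type 3. Akain1 (0.25), Vmac (0.29) and Gm9946 (0.33) lay higher at adjusted p-values of 0.11 to 0.16.

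Kcnip4, a partner of A-type potassium channels that damp dendritic excitability, was at -0.09, -0.22, -0.22 and -0.05 in mutants and 0.18, 0.13, 0.37 and 0.04 in wild types. All mutants lay below all wild types, and its 3 probe sets agreed in size (-0.35, -0.33 and -0.29). The difference was -0.33 (SE 0.07, limma adjusted p = 0.16), and Kcnd2, a pore-forming subunit of the same channels, was at -0.21 (SE 0.06, adjusted p = 0.43). These 2 were the only ones of 11 measured genes of these channels at an unadjusted p under 0.05 (18.2%, against 2.75% of all genes). Dagla, the lipase that makes the endocannabinoid 2-arachidonoylglycerol in neurons, was at -0.05, -0.14, -0.20 and -0.08 in mutants and 0.25, 0.05, 0.38 and 0.16 in wild types (-0.33, SE 0.07, adjusted p = 0.16). Its relative Daglb was at -0.17 (SE 0.09, adjusted p = 0.65), or -0.09 without wild type 1 and -0.11 without mutant 2.

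Ptgs2, the inducible cyclooxygenase that makes prostaglandins and is also an activity-regulated gene in neurons, was at -0.04, -0.20, 0.02 and -0.17 in mutants and 0.93, 0.57, 0.91 and -0.05 in wild types. Wild types 1 to 3 lay far above the mutants and wild type 4 lay among them. The difference was -0.69 (SE 0.15, limma adjusted p = 0.225), and without wild type 4 it was -0.90 (adjusted p = 0.00025). The latter leaves out the overlapping array, and over all settings run the adjusted p of Ptgs2 reached 0.986. Alas2, the erythroid form of the first enzyme of haem synthesis, was at -0.27, -0.33, -0.29 and -0.66 in mutants and 0.37, 0.27, 1.54 and 1.02 in wild types. The genotypes did not overlap, and the wild types spread over more than 1 unit. The difference was -1.19 (SE 0.24, adjusted p = 0.16). Of 7 measured red blood cell genes 2 lay lower at an unadjusted p under 0.05, Alas2 and the globin Hbb-b2 (-0.59, SE 0.17), and 1 higher, the globin Hba-a2 (0.17, SE 0.08). The remaining genes of haem synthesis, Alas2 apart, held 1 of 10 at an unadjusted p under 0.05, Uros, at 0.16 (SE 0.07), or 0.09 without wild type 1.

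The other genes among the 15 lowest were Slc7a14 (-0.33), Zfp719 (-0.26), Tent5c (-0.43), Ano3 (-0.38), Foxn2 (-0.35), Slc35f3 (-0.40), Clmp (-0.53) and Cd109 (-0.49), at limma adjusted p-values of 0.21 to 0.26. Clmp, an adhesion molecule, was at -0.23 without wild types 1 and 3.

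**Figure D3:**
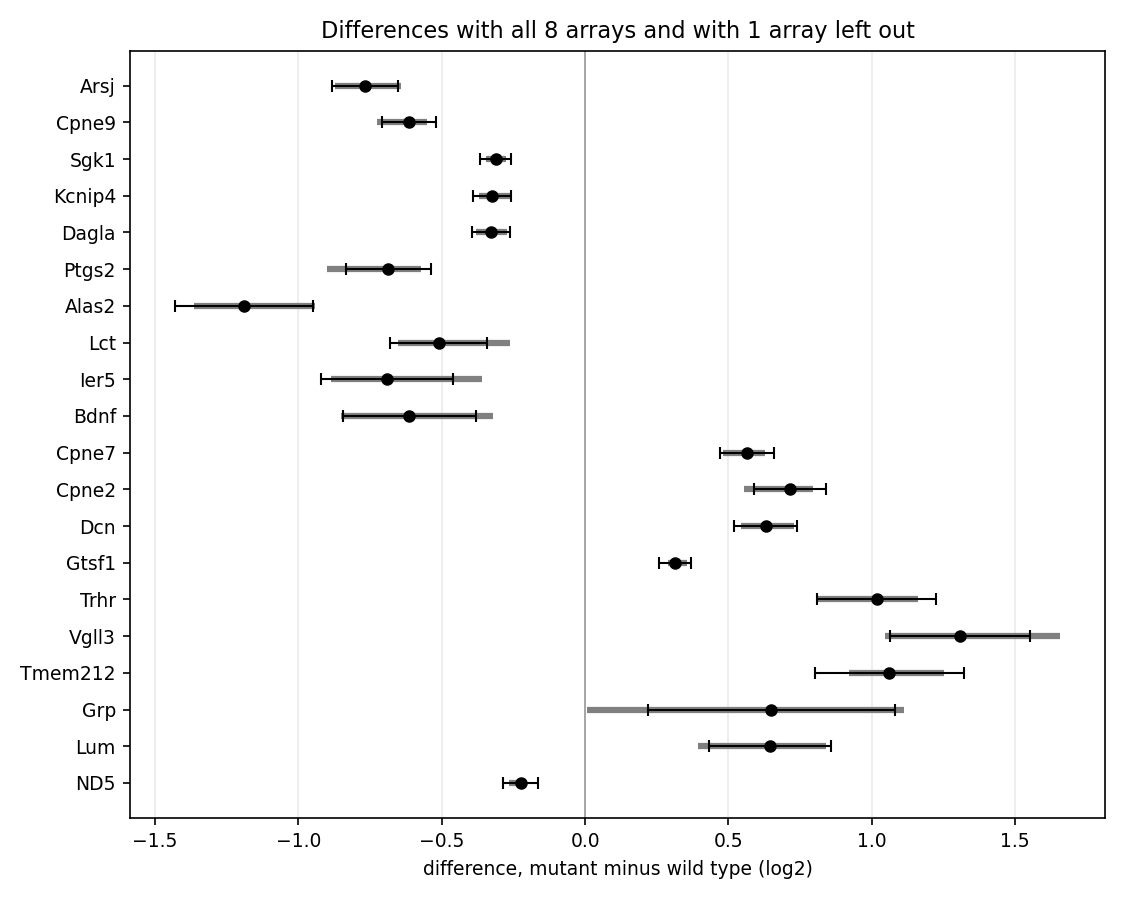
Difference between genotypes (x axis, mutant minus wild type, log2) for 20 named genes. Points are the values with all 8 hippocampus arrays and thin whiskers their SE, and grey bars run from the lowest to the highest value with 1 array left out. Grp runs from 0.01 to 1.11 depending on which wild type is absent, while Sgk1 stays between -0.35 and -0.28.

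Genes known to be higher towards the ventral pole lay higher in mutants. All 9 measured members were above 0, against 58.9% of all genes, with a median of 0.60, and 6 were at an unadjusted p under 0.05. Trhr and Dcn, described above, were put on the list with their values known. The list as a whole was also chosen with earlier results of these data known, so its other 7 members are no separate check. Those 7 were all above 0 with a median of 0.51, and 4 of them were at an unadjusted p under 0.05. Htr2c, a serotonin receptor, was at 0.80 (SE 0.26), Gpr101, an orphan receptor, at 0.60 (SE 0.17), the transcription factor Nr2f2 at 0.51 (SE 0.14) and the Notch-pathway ligand Dlk1 at 0.48 (SE 0.16), with limma adjusted p-values of 0.43 to 0.50. Gpr101 was 0.39 without mutant 3, Nr2f2 0.31 without wild type 3 and Dlk1 0.29 without mutant 2.

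The array means over the ventral list were 0.25, 0.32, 0.40 and 0.08 in mutants and -0.10, -0.06, -0.83 and -0.21 in wild types. Every mutant lay above every wild type, and wild type 3 was far below the rest. Without wild type 3 the list median was 0.36, with 8 of 9 members above 0 and 6 at an unadjusted p under 0.05. Without wild types 1 and 3 it was 0.40, with 4 at that level. The neuropeptide Grp shows how 1 array can set a value. It was at 0.03, 0.09, 0.45 and -0.03 in mutants and 0.87, -0.13, -2.45 and -0.35 in wild types, a difference of 0.65 (SE 0.43, adjusted p = 0.71) that was 0.01 without wild type 3. Coch (0.30) and Col5a1 (0.05) were the other members, and Coch was at 0.10 without mutant 1. Col5a1 was below 0 without mutant 1, wild type 2 or wild type 3.

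Genes known to be higher towards the dorsal pole lay lower in part. Of 7 measured members 5 were below 0, against 41.1% of all genes, with a median of -0.17, and 3 were at an unadjusted p under 0.05. Lct, the intestinal lactase gene that also marks dorsal dentate granule neurons, was at -0.00, -0.09, -0.06 and -0.19 in mutants and 0.00, 0.20, 1.17 and 0.33 in wild types. The genotypes were apart only by the small gap between mutant 1 and wild type 1, and wild type 3 was the highest. The difference was -0.51 (SE 0.17, limma adjusted p = 0.49), or -0.26 without wild type 3. Lct too was listed with its value known. Gsg1l, a subunit of AMPA receptors, was at -0.61 (SE 0.26), which was -0.23 without wild type 1, where it stood at 1.56. Wfs1, a marker of dorsal CA1, was at -0.31 (SE 0.14), with wild type 3 at 0.51 and mutant 3 at -0.57, and was -0.17 without mutant 3 and -0.19 without wild type 3. The other 4, Iyd (-0.17), Lefty1 (-0.01), Spata13 (0.03) and Stra6 (0.08), differed by about their SE or less, and Iyd was -0.04 without wild type 3. The array mean over the dorsal list was 0.42 on wild type 3 and between -0.20 and 0.05 on the other 7, and the list median was -0.04 without wild type 3. Where along the long axis each sample was cut is not given in the sources used here, and its part in these differences was not tested.

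**Figure D4:**
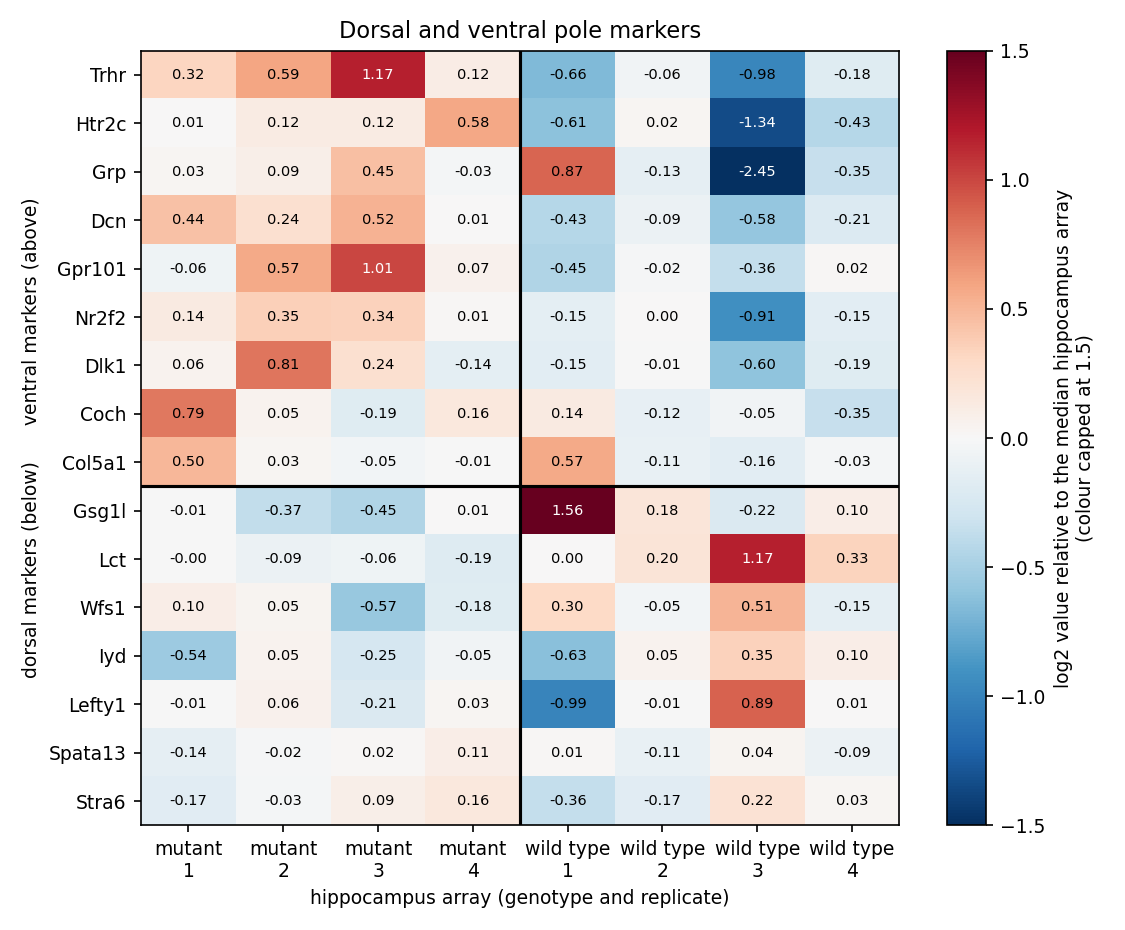
Values of 9 ventral and 7 dorsal pole markers (rows) on the 8 hippocampus arrays (columns), coloured and printed as log2 relative to the median hippocampus array. Wild type 3 is low for Trhr, Htr2c, Grp and Nr2f2 and high for Lct and Lefty1, and mutant 3 is the reverse for Trhr, Gpr101 and Wfs1.

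Dentate granule neuron genes lay lower in mutants for 12 of 14 measured members, with a median of -0.17, and 3 of them were at an unadjusted p under 0.05, against 2.75% of all genes. Prox1, the transcription factor that sets the identity of these neurons, was at -0.41, -0.13, 0.04 and -0.28 in mutants and 0.26, 0.02, 0.35 and 0.13 in wild types. Mutant 3 overlapped with wild type 2. The difference was -0.39 (SE 0.11, limma adjusted p = 0.43), and its 3 probe sets were at -0.49, -0.43 and -0.24. The others were Lct and the matrix protein Npnt (-0.19, SE 0.07), whose probe sets ran from -0.51 to 0.19. Without wild type 3 the median of the 14 was -0.08 and 8 were below 0, with 3 still at an unadjusted p under 0.05. Genes of the extrasynaptic GABA receptor of granule neurons lay lower as well, Gabrd at -0.22 (SE 0.06) and Gabra4 at -0.25 (SE 0.08). Their limma adjusted p-values were 0.43 and 0.47, and neither overlapped between genotypes, as was so for 1.52% of all genes in that direction. Gabrd was -0.16 without wild type 1, and its probe sets were at -0.36 and -0.09. Of 11 measured GABA receptor genes, 1 other was at an unadjusted p under 0.05, Gabrg1, higher in mutants (0.29, SE 0.12).

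CA1 markers gave no stable direction. With all arrays 6 of 9 lay above 0 with a median of 0.16, and without wild type 1 it was 3 of 9 with a median of -0.05. Fibcd1, a CA1 marker, was at -2.03 on wild type 1 and between -0.17 and 0.35 on the other 7 arrays. CA2 and CA3 lists had medians of -0.02 and -0.04. For CA2, 1 of 9 lay higher and 1 lower at an unadjusted p under 0.05, the lower being the calmodulin-binding Pcp4 (-0.26, SE 0.08), or -0.17 without wild type 1. For CA3, 0 of 10 were at that level. Glutamate receptor genes had 2 of 20 higher (10%, against 5.28% of all genes), Grin3a (0.42, SE 0.14) and Grin2d (0.16, SE 0.07). The 1 lower (5%, against 2.75%) was Grin2a (-0.29, SE 0.13). Grin3a was 0.27 and Grin2a -0.16 without wild type 3.

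Inhibitory interneuron genes lay higher in mutants for 18 of 23 measured members, with a median of 0.15, and 8 were at an unadjusted p under 0.05, against 5.28% of all genes. The 8 included the GABA-synthesising enzyme Gad2 (0.19, SE 0.06), the vesicular GABA transporter Slc32a1 (0.11, SE 0.04), the transcription factors Dlx1 (0.39, SE 0.15) and Dlx2 (0.19, SE 0.07), the serotonin-gated channel Htr3a (0.26, SE 0.08) and the peptide Cort (0.25, SE 0.09), all at limma adjusted p-values of 0.46 to 0.52. The 5 members below 0 were Npy (-0.53, SE 0.41), Pvalb (-0.19, SE 0.25), Dlx6 (-0.08), Cck (-0.03) and Cnr1 (-0.01). None of these was at an unadjusted p under 0.05. Slc32a1 was at 0.07, 0.07, 0.06 and 0.02 in mutants and -0.04, -0.03, -0.11 and -0.06 in wild types, so the groups did not overlap although the difference was small. Its probe sets ran from -0.03 to 0.23, and none was at an unadjusted p under 0.05 on its own. Array means over the list were 0.04, 0.04, 0.09 and 0.07 in mutants and 0.06, -0.03, -0.23 and -0.05 in wild types. Wild type 1 lay among the mutants and wild type 3 well below. Without wild type 3, 17 of 23 were above 0 with a median of 0.10, and 5 were at an unadjusted p under 0.05. Without wild types 1 and 3, 19 were above 0 and 2 were at that level. Neuropeptides and their receptors held 5 of 40 higher at that level (12.5%, against 5.28% of all genes) and 1 lower (2.5%, against 2.75%). The higher ones included Trhr, the neurokinin receptor Tacr3 (0.38, SE 0.10) and the kappa opioid receptor Oprk1 (0.29, SE 0.09).

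Genes of motile cilia, as ependymal cells carry, lay higher in mutants. Of 23 measured members 21 were above 0, with a median of 0.23, and 12 were at an unadjusted p under 0.05, against 5.28% of all genes. Tmem212 was at 0.01, 0.47, 0.94 and 0.93 in mutants and -0.90, -0.19, -0.01 and -0.80 in wild types (difference 1.06, SE 0.26, limma adjusted p = 0.37). Mutant 1 lay only just above wild type 3. Ccdc153 was at 0.03, 0.35, 0.83 and 0.74 in mutants and -0.44, -0.05, -0.03 and -0.34 in wild types (0.70, SE 0.19, adjusted p = 0.43). For both genes mutants 2 to 4 were clear of every wild type.

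Cfap161, a protein of the ciliary axoneme, was at -0.08, 0.73, 1.01 and 0.89 in mutants and -0.15, 0.01, -0.01 and -0.02 in wild types. Mutant 1 lay among the wild types and the other 3 mutants far above them. The difference was 0.68 (SE 0.18, limma adjusted p = 0.43), and without mutant 1 it was 0.92 (adjusted p = 0.0218). Again the overlapping array is the one left out, and over all settings run the adjusted p of Cfap161 reached 0.986. Dynlrb2, a dynein light chain, also had mutant 1 among the wild types, at -0.09, and the other mutants at 0.61, 1.14 and 1.04, against -0.30 to 0.09 in wild types. Meig1 (0.43, SE 0.09) and Odf3b (0.27, SE 0.06), which are also known from sperm, were among the 15 genes of smallest p on the higher side. The list's array means were -0.04, 0.20, 0.33 and 0.38 in mutants and between -0.17 and -0.05 in wild types. No single array made the list. With each array left out in turn, its median was 0.18 to 0.29 and 8 to 13 members were at an unadjusted p under 0.05.

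Choroid plexus genes, which come from tissue beside the ependyma, behaved otherwise. Of 19 measured members 18 lay above 0 with a median of 0.25, but 0 were at an unadjusted p under 0.05, and without mutant 4 the median was -0.02 with 7 above 0. Ttr, the thyroid hormone carrier made by the choroid plexus, was at -0.70, -1.56, 0.67 and 2.00 in mutants and 1.87, 1.22, -0.69 and -0.87 in wild types, spread over both genotypes. Meningeal and fibroblast genes had 18 of 19 above 0 with a median of 0.30 and 5 at an unadjusted p under 0.05, and without mutant 1 a median of -0.03 and 3. Lum, a relative of decorin, was at 0.40, 0.03, 0.17 and -0.03 in mutants and -1.26, 0.08, -0.47 and -0.37 in wild types (0.65, SE 0.21, limma adjusted p = 0.49), or 0.39 without wild type 1. Ogn was at 1.53 on mutant 1 and -1.52 on wild type 1, between which the other 6 arrays lay. Dcn was thus the member of this list with no overlap between genotypes. Mutants 1 to 4 stood at 0.44, 0.24, 0.52 and 0.01 for Dcn and at 1.11, 0.10, -0.07 and -0.09 for the meningeal mean, whose part in the difference was not tested.

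Immediate early genes, quickly induced in neurons by firing, lay lower in mutants for 23 of 28 members, with a median of -0.26, and 6 were at an unadjusted p under 0.05, against 2.75% of all genes. Ptgs2 led them. Egr3, a transcription factor, was at 0.00, -0.07, -0.10 and -0.24 in mutants and 0.77, 0.22, 0.31 and -0.05 in wild types (-0.41, SE 0.12, limma adjusted p = 0.43). Ier5 was at 0.07, -0.47, -0.36 and -0.09 in mutants and 1.47, 0.30, 0.25 and -0.10 in wild types (-0.69, SE 0.23, adjusted p = 0.49). Bdnf, a neurotrophin, was at 0.09, -0.09, -0.16 and -0.20 in mutants and 1.40, 0.27, 0.62 and -0.19 in wild types (-0.61, SE 0.23, adjusted p = 0.54). In all 3, wild type 1 was highest and wild type 4 lay within the range of the mutants. Without wild type 1 the differences were -0.26 for Egr3, -0.36 for Ier5 and -0.32 for Bdnf.

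The genotypes overlapped widely. List means were 0.34, -0.25, 0.03 and -0.27 in mutants and 0.13, 0.73, 0.45 and -0.32 in wild types. Without wild type 2 the median was -0.10 and 18 of 28 were below 0, and without wild type 4 it was -0.40 and 14 were at an unadjusted p under 0.05. Among 19 measured circadian clock genes 14 lay below 0, against 41.1% of all genes, with a median of -0.08. In the cerebellum 14 lay below 0 as well, with a median of -0.09. In the hippocampus 2 lay lower at an unadjusted p under 0.05 (10.5%, against 2.75% of all genes), Cry1 (-0.37, SE 0.17) and Bhlhe40 (-0.21, SE 0.10). Cry1 was -0.14 without wild type 1. Of 18 glucocorticoid-responsive genes 3 lay lower at that level (16.7%, against 2.75% of all genes), Sgk1, Klf9 (-0.17, SE 0.06) and Fkbp5 (-0.12, SE 0.05). The labels do not give the hour and manner of death, and their part was not tested.

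To show the DNA in front of members of 3 of these lists, the 250 bases before the annotated start were taken from RefSeq (GRCm38.p6) for 1 gene each. The promoters were chosen after the motif matches below were seen, and all 3 genes were at an unadjusted p under 0.05. Capitals mark the X-box core GTTGCCA, bound by the RFX factors of ciliary genes, in Cfap161, the core TGACGT of the cyclic AMP response element in Homer1, a postsynaptic scaffold gene with an activity-regulated short form, and the E-box CACGTG, bound by the clock factors, in Cry1, on either strand. Cfap161 lies at chr7:83794840-83795089 on the minus strand, Homer1 at chr13:93303507-93303756 on the plus strand and Cry1 at chr10:85185055-85185304 on the minus strand.
Cfap161: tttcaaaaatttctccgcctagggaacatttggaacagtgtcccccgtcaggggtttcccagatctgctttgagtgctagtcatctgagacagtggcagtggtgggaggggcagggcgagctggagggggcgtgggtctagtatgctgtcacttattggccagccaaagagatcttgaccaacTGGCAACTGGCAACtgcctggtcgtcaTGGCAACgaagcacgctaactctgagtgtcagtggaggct
Homer1: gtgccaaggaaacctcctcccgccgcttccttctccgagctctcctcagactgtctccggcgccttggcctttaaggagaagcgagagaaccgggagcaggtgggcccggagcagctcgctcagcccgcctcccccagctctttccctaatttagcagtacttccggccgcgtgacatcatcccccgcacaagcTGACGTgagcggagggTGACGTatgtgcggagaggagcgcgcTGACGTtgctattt
Cry1: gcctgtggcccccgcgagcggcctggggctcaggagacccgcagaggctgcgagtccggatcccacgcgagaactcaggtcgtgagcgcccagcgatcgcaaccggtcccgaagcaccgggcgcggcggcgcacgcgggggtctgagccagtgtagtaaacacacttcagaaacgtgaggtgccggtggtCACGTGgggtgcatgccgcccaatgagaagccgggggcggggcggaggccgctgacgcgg
Cfap161 holds 3 X-box cores and Homer1 3 copies of TGACGT, and Cry1 holds 1 E-box. Homer1 was at -0.21, -0.11, -0.01 and -0.00 in mutants and 0.23, 0.17, 0.39 and -0.09 in wild types (-0.26, SE 0.12, limma adjusted p = 0.61), with wild type 4 among the mutants. Its 6 probe sets were far apart, 2 at -0.88 and -0.55 and the other 4 between -0.17 and 0.05, and which form each detects is not given in the sources used here.

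In all, 9 motifs were searched on both strands of the same 250 bases in 27018 genes and in 5 lists. TGACGT was found in 9 of the 22 immediate early genes with a promoter in the table, against 6.56% of all promoters. The full element TGACGTCA, which contains it, was found in 2 of 22 (1.62% of all), the looser TGACGNNA, which contains the full element, in 10 of 22 (5.87%), and the CArG box in 1 of 22 (1.4%). GTTGCCA was found in 4 of 19 ependymal genes (3.69%), its extension GTTGCCATG in 1 of 19 (0.622%) and the full X-box in 0 of 19 (0.333%). CACGTG was found in 5 of 17 clock genes, 4 of 22 immediate early genes and 2 of 16 glucocorticoid-responsive genes (6.05%), and the glucocorticoid response element in 2 of 16 of the latter (0.381%). None of the 9 was found in the 6 ventral genes with a promoter in the table. Besides Cfap161, the ependymal genes with GTTGCCA were Hydin (0.00), Tekt1 (-0.03) and Mlf1 (0.34), none at an unadjusted p under 0.05. Apart from Homer1, no immediate early gene with TGACGT was at that level, nor was any clock gene with CACGTG apart from Cry1. All of these are matches of letters, chosen after seeing them, and show neither binding nor regulation.

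Genes tied to mitochondrial DNA differed little. Of 21 measured genes for its replication and transcription, 7 lay above 0 with a median of -0.02, and 0 were at an unadjusted p under 0.05. Those of smallest p were Top1mt, the mitochondrial topoisomerase (0.21, SE 0.10, limma adjusted p = 0.61, 0.12 without wild type 3), and Polrmt, the mitochondrial RNA polymerase (-0.11, SE 0.06, adjusted p = 0.65). Of the 13 proteins that mitochondrial DNA encodes, 1 was measured, ND5 of complex I. It was at -0.21, -0.05, -0.19 and -0.21 in mutants and 0.05, 0.09, 0.06 and 0.05 in wild types. Every mutant lay below every wild type, mutant 2 nearest to them, and the difference was -0.23 (SE 0.06, adjusted p = 0.43), or -0.26 to -0.21 with single arrays left out.

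Nuclear genes of the respiratory chain lay above 0 more often than the 58.9% of all genes, by small amounts. For complex I, 27 of 33 were above 0 with a median of 0.05, and 2 were at an unadjusted p under 0.05, Ndufs8 (0.16, SE 0.06) and Ndufa7 (0.15, SE 0.06). For complexes II to V, 28 of 37 were above 0 with a median of 0.04, and 3 were at that level, among them the ATP synthase subunits Atp5k (0.12, SE 0.05) and Atp5d (0.14, SE 0.06). The median of all genes was 0.02. The shares at that level, 6.06% and 8.11%, were little above the 5.28% of all genes. Without mutant 4, 0 genes of either list were at that level. The cerebellum showed much the same, with 29 of 33 and 28 of 37 above 0 and medians of 0.06 and 0.03.

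The integrated stress response, which mitochondrial damage is known to set off in muscle, had 15 of 25 genes above 0 with a median of 0.04. Of these genes 2 lay higher at an unadjusted p under 0.05 (8%, against 5.28% of all genes). Slc7a3, a carrier of cationic amino acids, was at 0.17, 0.40, 0.78 and 0.05 in mutants and -0.30, -0.05, -0.52 and -0.09 in wild types (0.59, SE 0.14, limma adjusted p = 0.26), with no overlap. Cth, an enzyme of cysteine synthesis, was at 0.30 (SE 0.11, adjusted p = 0.51). Phgdh, of serine synthesis, was at 0.18 (SE 0.09) and 0.08 without wild type 1. Mitochondrial chaperones and proteases had 0 of 15 and genes of nucleotide supply 0 of 14 at an unadjusted p under 0.05. Of 19 regulators of mitochondrial number and energy sensors, 2 lay lower at that level (10.5%, against 2.75% of all genes). They were Prkaa2, a catalytic subunit of AMP-activated kinase (-0.22, SE 0.06), and the deacetylase Sirt1 (-0.27, SE 0.10). Antioxidant genes had 3 of 22 higher (13.6%, against 5.28% of all genes), Gpx3 (0.61, SE 0.22), Prdx3 (0.15, SE 0.07) and Txn1 (0.11, SE 0.05).

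Of the glial and vascular lists, that of oligodendrocytes had the largest share of genes at an unadjusted p under 0.05. Oligodendrocyte and myelin genes lay above 0 for 15 of 16 with a median of 0.15, and 3 lay higher at that level (18.8%, against 5.28% of all genes). They were Ndrg1 (0.31, SE 0.09), Opalin (0.22, SE 0.09) and Aspa (0.31, SE 0.14). Aspa was 0.18 without wild type 1. Without the 3 arrays with neighbouring-tissue markers the median was 0.00 and 0 were at that level. Oligodendrocyte precursor genes lay above 0 for 8 of 9 with a median of 0.13, and 1 was at that level, Bmp4 (0.35, SE 0.16). Astrocytes had 0 of 15, microglia 0 of 14, endothelium 1 of 12 (Tek, 0.24, SE 0.09, 0.16 without wild type 1) and mural cells 1 of 10 (Abcc9, -0.19, SE 0.06) at that level, with medians of -0.06, -0.05, 0.07 and 0.09. Markers of neighbouring forebrain gave medians of 0.07 for striatum, -0.02 for thalamus and 0.00 for neocortex. For striatum 3 of 12 lay higher at that level (25%, against 5.28% of all genes) and 1 lower (8.33%, against 2.75%). The higher ones were Rxrg (0.42, SE 0.11), Isl1 (0.29, SE 0.09) and Rarb (0.23, SE 0.10). The striatal receptor gene Drd1, at -0.47 (SE 0.21), was -0.13 without wild type 1, where it stood at 1.40.

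**Figure D5:**
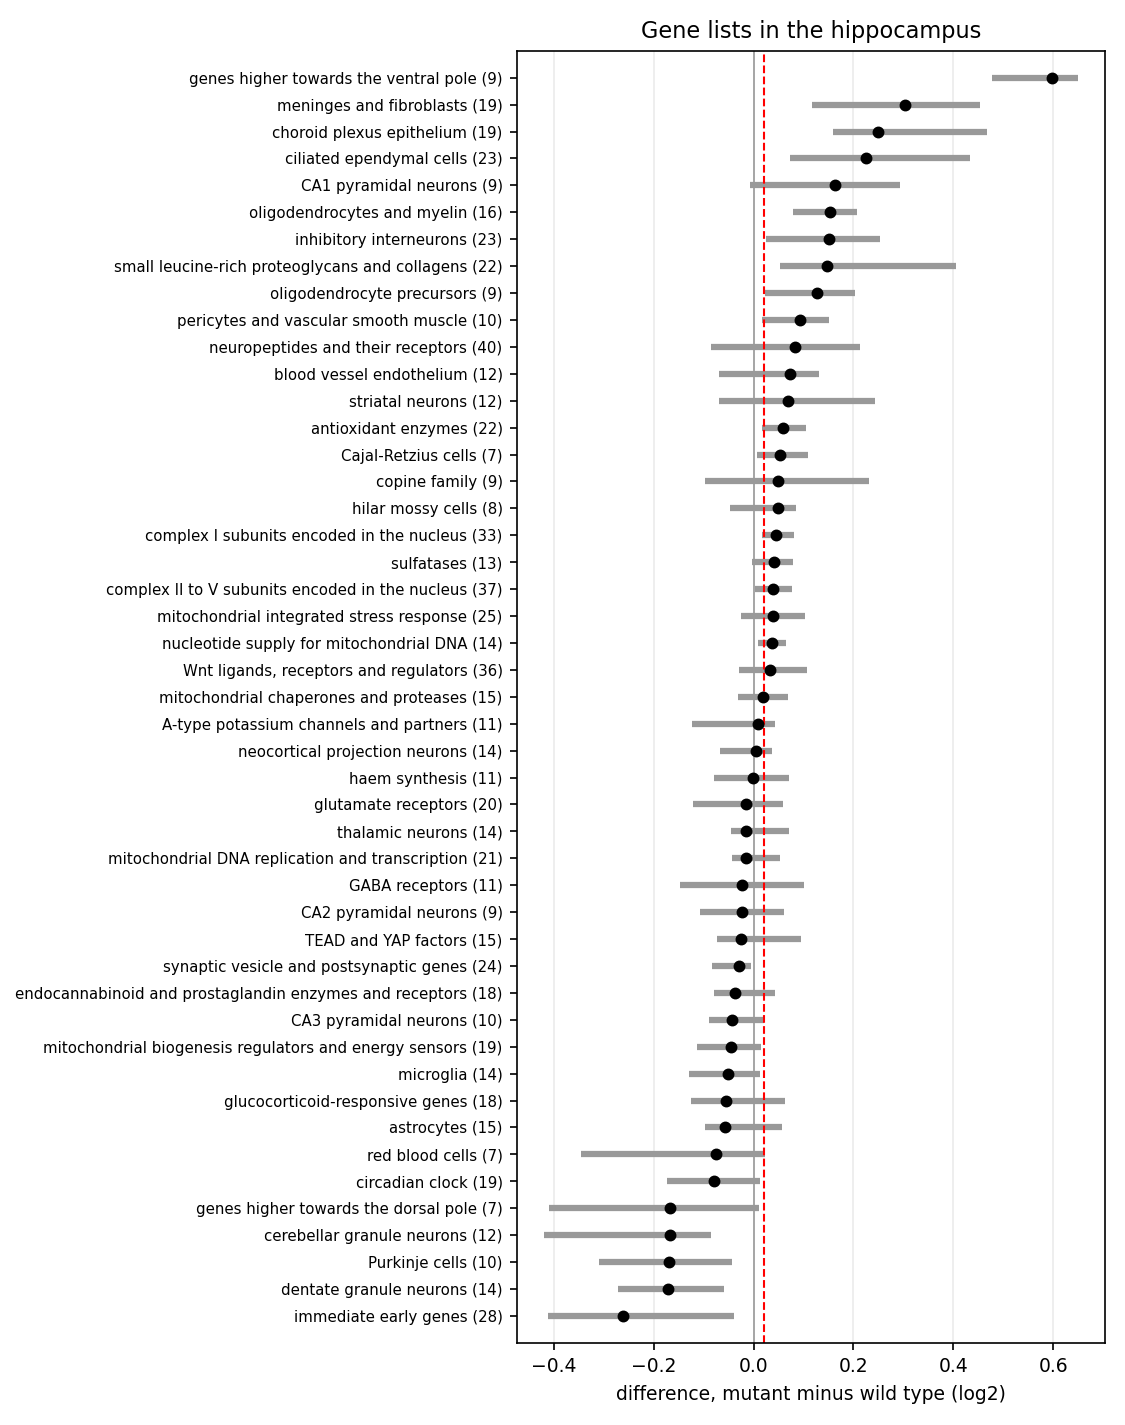
Median (point) and quartiles (grey bar) of the differences between genotypes (x axis, mutant minus wild type, log2) for each list with at least 5 measured genes, whose number is in brackets. The red dashed line is the median over all 18168 genes, 0.02. The ventral list lies highest at 0.60 and the immediate early genes lowest at -0.26.

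The same genotypes were compared in the cerebellum to see where the hippocampus differed from it. limma called 0 of 18168 genes (0%) there, and for the difference between the regions' effects, hippocampus minus cerebellum, it also called 0 (0%), with 972 at an unadjusted p under 0.05 (5.35%) and a smallest adjusted p of 0.67. Arsj was at 0.03 (SE 0.11) in the cerebellum and its effect differed by -0.79 (SE 0.16, adjusted p = 0.67). Cpne9 was at -0.00 there and its effect differed by -0.61 (SE 0.13, adjusted p = 0.72). No gene was therefore shown to be particular to the hippocampus. Of the 30 leading genes 3 were at an unadjusted p under 0.05 in the cerebellum. Alas2 lay lower there too, by -0.97 (limma unadjusted p = 0.00098, adjusted p = 0.88), and so did Tent5c, by -0.30. Gtsf1 lay higher in both regions, by 0.13 (SE 0.06) in the cerebellum. The ventral list had a median of 0.00 in the cerebellum, the ependymal list one of 0.00, the dentate list -0.03 and the immediate early genes 0.03. The clock genes had much the same median in both regions, -0.09 in the cerebellum and -0.08 in the hippocampus. The values of each region are relative to its own median array.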

How the data were processed

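Per the labels' protocols, Trizol was used for extraction, and biotinylated cRNA made from 5 ug of total RNA was put on Affymetrix arrays. The submitters' processing notes name GCOS 4.0. How probe sets were summarised and arrays normalized is not stated in the sources used here. The values deposited by the authors are log2 by assumption, since the base is not stated, and relative: over the 8 hippocampus arrays the median lay within 1e-05 of 0 for 100% of probe sets. So no filter on dim signals could be made.

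Of 45101 probe sets, 64 controls and 133 with an empty value were left out. Of the 44904 analysed, 34843 had 1 gene symbol in GEO's platform annotation, 931 several and 9130 none. A match to the gene table by identifier was found for 34640 and changed 0 symbols. Probe sets of 1 gene were averaged, giving 18168 genes, 9192 of them on 1 probe set.

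limma 3.58.1 in R 4.3.3 fitted a mean per group to all 16 arrays, with 12 residual degrees of freedom and no covariate, and the fit was tested on simulated data. The 48 gene lists were described by counts and medians without a test. The members and lists were chosen with earlier results of these data known. Named were Twnk, the 15 lowest p-values on either side, the 4 members of smallest p in each list, and any member of lists of up to 25. Promoters came from RefSeq. Alternatives were the 8 arrays alone, each array left out, a replicate block, age as a covariate, other normalization and centring, other treatment of probe sets, a robust variance model, array weights, and leaving out arrays whose mean over a neighbouring-tissue list was above 0.5. Leaving out wild types 1 and 3 together was chosen after seeing the data.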

Additional observations from a re-analysis of the deposited data

Results flagged for a closer look

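In 9 of 156 groups of 4 arrays, 1 array lay far from the other 3 of its genotype, where chance alone gives about 1 in 20. Among the 30 leading genes these were Alas2 on mutant 4 (-0.66), Arsj on mutant 1 (-0.50) and Foxn2 on mutant 3 (-0.0274). Among the list means they were the dorsal pole markers on wild type 3 (0.42), the endothelial markers on mutant 1 (0.23), the meningeal markers on mutant 1 (1.11), the Purkinje cell markers on wild type 1 (1.28) and the cerebellar granule markers on wild type 1 (1.96). The last was ND5 on mutant 2 (-0.0477).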

How the results depend on the processing

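The count of 0 called genes, with 1459 at an unadjusted p under 0.05, was also 0 in every alternative not named in this paragraph with another count. It was 4 after quantile normalization (Arsj, Cpne2, Cpne7 and Cpne9), 2 with the robust variance model (Arsj and Cpne9), and 1 (Vgll3) without the 3 arrays with neighbouring-tissue markers, where 840 genes were at an unadjusted p under 0.05. With single arrays left out it was 0 to 7. The 7, without wild type 2, were Arsj, Clmp, Cpne2, Cpne7, Cpne9, Dcn and Mettl24, the last (0.66) outside the naming rule and chosen after its value was seen. Without wild type 4 there were 3 (Arsj, Cpne7 and Ptgs2), without mutant 4 2 (Dcn and Vgll3) and without mutant 1 1 (Cfap161). Without wild types 1 and 3 together 857 genes were at an unadjusted p under 0.05, and 3227 of 44904 probe sets were when each was tested on its own. For the difference between regions, 0 to 1 genes were called with single arrays left out. The smallest adjusted p ranged from 5.42e-05 to 0.67 over these settings, and was 0.644 with the 8 hippocampus arrays alone. The causes were not tested.

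Same-numbered mutant and wild-type arrays deviated together with correlations of 0.23, -0.07, 0.02 and -0.03. The 0.23 is that of replicate 1, whose arrays had the highest cerebellar granule means (0.66 and 1.96). Hippocampus and cerebellum arrays of one number had correlations of 0.13, 0.07, -0.17 and -0.12 in mutants. In wild types these were 0.07, -0.05, -0.03 and 0.17. So few values cannot settle whether samples of one number were paired. With replicate number as a block 0 genes were called, with 1407 at an unadjusted p under 0.05 in the 8 arrays and 1345 in all 16, and the block left the difference between regions at 0 called.

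Of 134 genes followed, 123 kept their sign in every setting run for them (20, or 19 for Atp5d, Cpne6 and Phgdh). Col5a1 was -0.00976 with the median over probe sets and -0.0751 to 0.22 with single arrays left out. Stra6 was -0.0157 with age as a covariate and -0.0102 to 0.18. Without the 3 arrays Cpne5 was 0.00712, Cpne8 -0.0161, Slc13a4 -0.17, Gabra6 0.69 and Pcp2 0.22. Gabra6 was 0.44 with age, 0.39 after quantile normalization, 0.49 with array weights and 1.13 without wild types 1 and 3, where Pcp2 was 0.53. Under age, quantile normalization and array weights, Pcp2 was 0.16, 0.12 and 0.19. With single arrays left out, Gabra6 ranged from -1.14 to 1.17, Pcp2 from -0.69 to 0.56, Ttr from -0.92 to 0.27, Cpne4 from -0.18 to 0.0537, Cpne5 from -0.16 to 0.0206, Cpne8 from -0.0197 to 0.16, Lefty1 from -0.33 to 0.30 and Spata13 from -0.00926 to 0.0724. The filter on dim probe sets was not run, since the values hold no level.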
